A study of Rattus norvegicus with 9 samples.

Results

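The 9 genes described here were among those with lower RNA levels in the vestibular epithelium of rats exposed to 3,3′-iminodipropionitrile (IDPN), and little is established about what most of them do in hair cells (HCs). They are AC132671.2 (the table's name for Vsig10l2), Adam11, Hs3st2, Vwa3a, Lrtm2, Insc, Ap3b2, Fbxw7 and Spp1. They were found by symbol in a table of 32883 genes, and all 9 were among the 15517 genes with enough counts to be tested. The genes were chosen by their low levels in the exposed groups of these same libraries, so their changes against control are given as descriptions and not as tests. All but Spp1 also stand on the study's list of genes downregulated in all of its comparisons. The comparisons made from these libraries are no independent evidence of their direction. The others used separate animals, among them mice and rats given streptomycin, and were not examined here. For Spp1 the study reported a fall in a separate experiment with IDPN in rats. The question was which genes were already fully reduced at 3 weeks and which fell further by 7 weeks. The test of 7 against 3 weeks draws on the same libraries, and the genes were chosen with earlier results of these data known, so its p-values are no evidence independent of the choice.

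Male Long-Evans rats drank water with 20 mM IDPN for 3 weeks (IDPN-3wk) or 7 weeks (IDPN-7wk), or plain water (Control), with 3 rats in each group. IDPN is a nitrile that damages vestibular HCs when given in the drinking water. The utricles and cristae of each rat were pooled into 1 library, so HCs, supporting cells, nerve endings, glia, connective tissue and immune cells were measured together. A single control group served both times of exposure and held animals taken at each of them, but its libraries are not labelled by time. Length of exposure and age therefore cannot be told apart between the IDPN-3wk and IDPN-7wk groups. In such bulk RNA, fewer cells of a type and less RNA per cell cannot be told apart.

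Vestibular HCs turn head movement into a nerve signal. Type I HCs (HCI) are enclosed by a cup-shaped afferent ending, the calyx, and type II HCs (HCII) contact small bouton endings. The 9 genes have different known roles. VSIG10L2 is predicted to be a membrane protein of the immunoglobulin family. ADAM11 belongs to the group of ADAM proteins that lack protease activity and act as membrane receptors, together with ADAM22 and ADAM23, and in the cerebellum it helps to gather Kv1 potassium channels at axon terminals. HS3ST2 is an enzyme that adds 3-O-sulfate groups to heparan sulfate chains. INSC (Inscuteable) links polarity proteins to LGN and inhibitory G proteins, and in developing HCs it marks the bare zone beside the hair bundle. AP3B2 is the β subunit of the neuronal form of the adaptor complex AP-3, which sorts vesicle proteins. FBXW7 is the substrate-binding subunit of an SCF ubiquitin ligase whose targets include NOTCH, MYC, JUN and cyclin E. SPP1 (osteopontin) is a secreted phosphoprotein of the matrix that serves as a marker of HCI and is also made by bone cells and by macrophages. LRTM2 is a membrane protein with leucine-rich repeats, and VWA3A has a von Willebrand factor A domain.

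Library totals lay between 31100118 and 46018385 counts. Levels are given as CPM, counts scaled to a common library total, after TMM scaling, and 3 counts in a library correspond to 0.0652 to 0.0965 CPM. Such a floor covers counting error only, since PCR copies without molecular identifiers are not independent molecules. CPM are not divided by transcript length, so levels are compared between groups and not between genes. Counted at the same depth, 15387 to 15498 genes were detected in 3 libraries (IDPN-3wk replicates 1 and 2 and Control replicate 3), and 16834 to 17312 in the other 6. All IDPN-7wk libraries were among the latter, so results for 7 against 3 weeks are also given with this difference between libraries in the model. All 16 HC markers examined were measured, and their summed level was 2115 to 2298 CPM in the control libraries, 1216 to 1554 CPM at 3 weeks and 1156 to 1349 CPM at 7 weeks.

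Upstream sequences were looked up for the 9 genes in RefSeq (build GRCr8), and 7 of them had an entry. The 250 bases before the gene start were searched on both strands for the letters CAGCTG, a form of the E-box whose other forms were left out. They were also searched for TGACGTCA, the core of a cyclic AMP response element. Also searched were TATAAA, which is found at many gene starts, GTTGCC, which is part of an X-box, and AATCAC, which is the core of a GFI1 site. The 130 bases next to the start are printed for the 3 genes with CAGCTG and for Spp1, the gene with the clearest further fall by 7 weeks. Capitals mark the motifs, and Hs3st2 lies at chr1:185387333-185387462 (plus strand), Insc at chr1:178427293-178427422 (plus strand), Lrtm2 at chr4:154172678-154172807 (minus strand) and Spp1 at chr14:5619805-5619934 (minus strand).
Hs3st2: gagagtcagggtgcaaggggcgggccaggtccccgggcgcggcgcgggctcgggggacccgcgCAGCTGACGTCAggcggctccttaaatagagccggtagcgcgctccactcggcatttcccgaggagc
Insc: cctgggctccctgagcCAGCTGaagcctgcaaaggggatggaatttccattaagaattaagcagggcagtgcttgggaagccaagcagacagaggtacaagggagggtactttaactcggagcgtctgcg
Lrtm2: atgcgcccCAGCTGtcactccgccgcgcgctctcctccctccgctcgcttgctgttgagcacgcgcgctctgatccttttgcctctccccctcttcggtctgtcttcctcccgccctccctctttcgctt
Spp1: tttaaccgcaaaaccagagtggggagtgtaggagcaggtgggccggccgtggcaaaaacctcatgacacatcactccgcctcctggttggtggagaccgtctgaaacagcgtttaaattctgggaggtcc
The letters CAGCTG stood in 3 of the 7 sequences and in 12% of the 33469 rat promoters of the same length. In Hs3st2 CAGCTG, at position -67, overlapped the only TGACGTCA among the 7, at -63, and 1.59% of all promoters held the latter. The CAGCTG of Insc was at -114 and that of Lrtm2 at -122. TATAAA was found only in Spp1, at -204 and outside the printed stretch, against 12.9% of all promoters. The X-box letters were in none of the 7 and in 9.89% of all promoters, and the GFI1 letters in none and in 9.41%. The GC content of the 7 sequences ran from 46.8% to 67.6%, and the median of all promoters was 51.2%. These letters were chosen after the sequences had been seen, and a match describes the sequence only.

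Spp1 (ENSRNOG00000043451) stood apart from the other genes in its course. Its level was 5153, 4803 and 5573 CPM in the control libraries. At 3 weeks it was 3236, 3104 and 2625 CPM, and at 7 weeks 1337, 1643 and 1505 CPM. The 3 groups did not overlap, and the order was control, 3 weeks, 7 weeks. The means were 5177 ± 385.5, 2988 ± 321.3 and 1495 ± 153 CPM (SD, n = 3), so that 57.7% of the control level was present at 3 weeks and 28.9% at 7 weeks. Relative to control, the log2 fold change was -0.79 (SE 0.108) at 3 weeks and -1.79 (SE 0.111) at 7 weeks. Between the exposed groups, Spp1 was downregulated by a log2 fold change of -0.999 (95% interval -1.24 to -0.76, adjusted p = 0.003261, edgeR quasi-likelihood test with Benjamini-Hochberg adjustment over 15517 genes). It was the only gene of the 9 called in this comparison, in which 0.135% of all genes tested were called lower and 0.348% higher. Genes were called where the fold change exceeded 1.5 at an adjusted p below 0.05. With the difference in detected genes in the model, the log2 fold change was -0.85 (adjusted p = 0.02164). Within the libraries with more detected genes the difference was -0.82 with no test, and IDPN-3wk replicate 3 was the only 3-week library there.

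Macrophages, bone cells and supporting cells contribute RNA to such samples, and their markers were followed beside Spp1. The 14 macrophage markers measured summed to 266.1 to 399.4 CPM in controls, 218.5 to 514.8 CPM at 3 weeks and 593.8 to 847.1 CPM at 7 weeks, and 3 of them (C1qb, Gpnmb and Cd14) were upregulated at 7 weeks against control. At 3 weeks none of the 14 was called, and the summed ranges of controls and 3 weeks overlapped. The bone and matrix markers summed to 355.6 to 402.4, 328.5 to 527.8 and 272.3 to 420.2 CPM, ranges that overlap. Of this list, only Lum, a collagen-binding proteoglycan, was called, with 20.7 ± 6.40 CPM in controls and 5.83 ± 0.256 CPM at 7 weeks. Of the bone genes on it, Dmp1 had means of 88.8, 87.5 and 77.3 CPM, Col1a1 of 20.2, 32.0 and 43.4 CPM and Alpl of 19.3, 20.3 and 20.2 CPM, while Ibsp had 0.226, 0.362 and 0.664 CPM and Bglap did not exceed 1.31 CPM in any library; these were picked out after their values were seen. Supporting cell markers summed to 16060 to 16420 CPM in controls, 10200 to 12650 CPM at 3 weeks and 6780 to 9596 CPM at 7 weeks, and Schwann cell markers to 10600 to 13190, 8521 to 11330 and 3883 to 7704 CPM. Of the 12 supporting cell markers, 1 was called lower at 3 weeks and 5 at 7 weeks, and the most abundant, Otog, which makes up much of the sum, had means of 8471, 4673 and 3532 CPM and was called only at 7 weeks. The part of these cell types in the level of Spp1 was not tested.

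**Figure D1:**
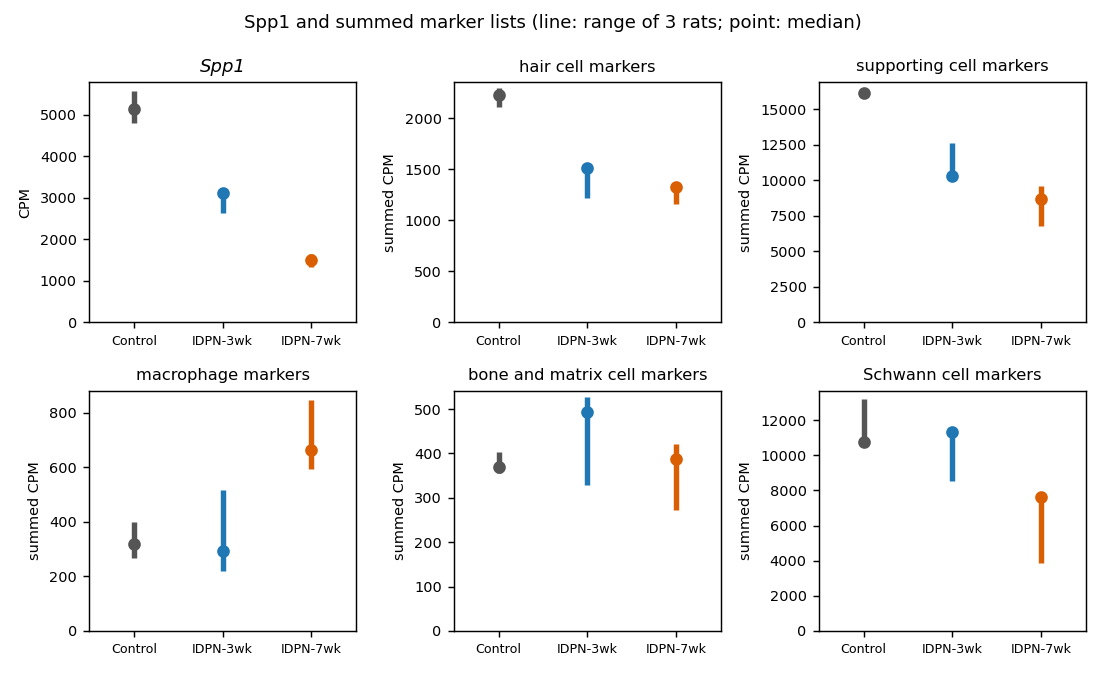
Level of Spp1 (CPM) and summed level of 5 marker lists (summed CPM) in the 3 groups; lines span the lowest to the highest of 3 rats and points are medians. Spp1 steps down from 4803 to 5573 CPM in controls to 1337 to 1643 CPM at 7 weeks, while the macrophage sum is highest at 7 weeks (593.8 to 847.1 CPM).

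Hs3st2 (ENSRNOG00000017659) had the largest fold change of the 9 genes at 7 weeks. Its level was 16.1, 15.9 and 20.9 CPM in control libraries and 3.35, 4.88 and 1.48 CPM at 3 weeks. At 7 weeks it was 0.937, 1.17 and 1.14 CPM, still above the floor of 3 counts. All 7-week libraries were below all 3-week libraries, although IDPN-3wk replicate 3 was close to them. Mean levels were 17.6 ± 2.80, 3.24 ± 1.71 and 1.08 ± 0.127 CPM, or 18.4% of control at 3 weeks and 6.14% at 7 weeks. The log2 fold changes against control were -2.44 (SE 0.406) and -4.02 (SE 0.437). Between 7 and 3 weeks the log2 fold change was -1.58 (95% interval -2.48 to -0.68), and the adjusted p of the edgeR quasi-likelihood test was 0.1433, so the further fall was not called. With DESeq2, or without IDPN-3wk replicate 3, the call was made (log2 fold change -1.59, adjusted p = 0.01334, and -1.92, adjusted p = 0.02023). With the difference in detected genes in the model, the log2 fold change was only -0.86 (adjusted p = 0.7396). The call of a further fall in Hs3st2 thus depended on the tool and on the 3-week libraries used.

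Adam11 (ENSRNOG00000002753) was at 633, 817 and 601 CPM in control libraries. At 3 weeks the levels were 147.4, 156.4 and 134.9 CPM, and at 7 weeks 83.6, 112.8 and 113.3 CPM. As for Hs3st2, all 7-week values lay below all 3-week values, but the gap was small beside the fall from control. Means were 684 ± 117, 146 ± 10.8 and 103 ± 17.0 CPM, which correspond to 21.4% and 15.1% of control. The log2 fold change was -2.23 (SE 0.154) at 3 weeks and -2.73 (SE 0.157) at 7 weeks. The difference between 7 and 3 weeks, -0.50 (95% interval -0.83 to -0.17), was not called by the edgeR quasi-likelihood test (adjusted p = 0.1909), and the adjusted p was 0.5783 with the difference in detected genes in the model.

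AC132671.2 (ENSRNOG00000055680) had a large fall at 3 weeks with little spread among the exposed libraries. Control libraries held 426, 475 and 367 CPM. The 3-week libraries held 52.9, 55.7 and 60.8 CPM, and the 7-week libraries 52.3, 51.1 and 48.8 CPM. Both exposed groups were thus at a similar low level, with small spread in each, although the 7-week libraries were all slightly below the 3-week libraries. The means of 422 ± 54.2, 56.5 ± 3.95 and 50.8 ± 1.76 CPM left 13.4% of the control level at 3 weeks and 12% at 7 weeks. Log2 fold changes against control were -2.90 (SE 0.115) and -3.06 (SE 0.116). The 7-week group differed from the 3-week group by -0.15 on the log2 scale (95% interval -0.39 to 0.09, edgeR adjusted p = 0.578). With the difference in detected genes in the model this was -0.31 (adjusted p = 0.5627).

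Vwa3a (ENSRNOG00000025110) was the gene with the largest fold change of the 9 at 3 weeks. It was at 56.1, 68.9 and 44.1 CPM in controls. At 3 weeks it was at 9.05, 2.83 and 7.04 CPM and at 7 weeks at 9.84, 8.14 and 11.4 CPM. The exposed groups overlapped, and IDPN-3wk replicate 2 was the lowest library. Means were 56.4 ± 12.4, 6.30 ± 3.17 and 9.79 ± 1.63 CPM, with log2 fold changes of -3.16 (SE 0.380) at 3 weeks and -2.53 (SE 0.368) at 7 weeks. The difference of 7 against 3 weeks was 0.63 (95% interval -0.17 to 1.42, edgeR adjusted p = 0.4855), which includes both no change and a partial return. The value was 0.38 (adjusted p = 0.9437) with the difference in detected genes in the model.

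Fbxw7 (ENSRNOG00000010889) had 41.1, 48.1 and 37.7 CPM in control libraries. It had 17.3, 8.45 and 11.6 CPM at 3 weeks and 11.2, 11.1 and 14.0 CPM at 7 weeks. The 3-week libraries spread on both sides of the 7-week libraries. Mean levels of 42.3 ± 5.28, 12.5 ± 4.49 and 12.1 ± 1.65 CPM left 29.4% and 28.6% of control. The log2 fold change was -1.76 (SE 0.257) at 3 weeks, -1.81 (SE 0.257) at 7 weeks and -0.04 between them (95% interval -0.61 to 0.52, edgeR adjusted p = 0.9672), or -0.08 (adjusted p = 0.9883) with the difference in detected genes in the model. A gene that overlaps Fbxw7 in the RefSeq annotation (GRCr8), Dear, had a mean of 0.626 CPM in controls.

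Lrtm2, Insc and Ap3b2 fell less and kept between 43.3% and 55.5% of the control level in the exposed groups. Lrtm2 (ENSRNOG00000007508) was at 104, 112 and 87.0 CPM in controls, at 38.6, 59.1 and 58.3 CPM at 3 weeks and at 38.5, 44.1 and 53.3 CPM at 7 weeks. Both exposed groups lay below control and overlapped each other. Its means were 101 ± 12.9, 52.0 ± 11.6 and 45.3 ± 7.47 CPM, and the log2 fold changes against control were -0.96 (SE 0.190) and -1.16 (SE 0.191). The difference of 7 against 3 weeks was -0.20 (95% interval -0.62 to 0.22, edgeR adjusted p = 0.7051), and -0.38 (adjusted p = 0.8362) with detected genes in the model. The same annotation has Lrtm2 overlap Cacna2d4, which was at a mean of 1.28 CPM in controls.

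Insc (ENSRNOG00000024712) was at 58.5, 59.6 and 44.9 CPM in controls, at 22.5, 21.8 and 32.2 CPM at 3 weeks and at 17.7, 25.2 and 27.6 CPM at 7 weeks. The exposed groups overlapped, with IDPN-3wk replicate 3 the highest exposed library. Means of 54.4 ± 8.18, 25.5 ± 5.81 and 23.5 ± 5.16 CPM gave log2 fold changes of -1.09 (SE 0.221) and -1.21 (SE 0.221). Between 7 and 3 weeks the value was -0.12 (95% interval -0.61 to 0.37, edgeR adjusted p = 0.8758), and -0.41 (adjusted p = 0.7822) with detected genes in the model.

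Ap3b2 (ENSRNOG00000019249) was at 365, 465 and 280 CPM in controls, at 165.3, 198.9 and 167.3 CPM at 3 weeks and at 214.7, 214.8 and 186.3 CPM at 7 weeks. The control libraries varied more than the exposed ones, and every exposed library was below the lowest of them. Means were 370 ± 92.2, 177 ± 18.9 and 205 ± 16.4 CPM. The log2 fold changes were -1.06 (SE 0.166) and -0.85 (SE 0.165), and the difference of 7 against 3 weeks was 0.21 (95% interval -0.15 to 0.58, edgeR adjusted p = 0.6219), and 0.06 (adjusted p = 0.9876) with detected genes in the model.

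**Figure D2:**
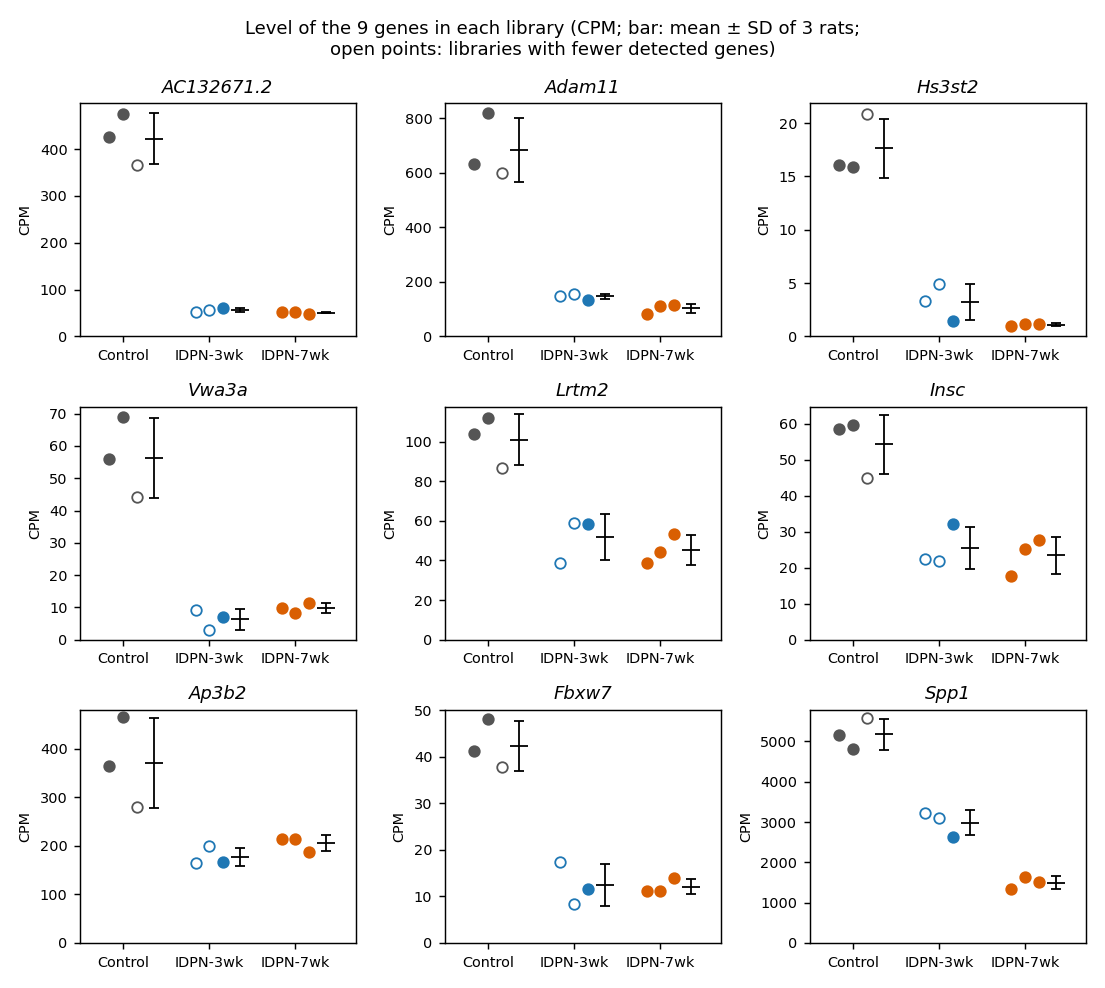
Level of each gene (CPM, axis from 0) in the 9 libraries; points are single rats, bars are the mean ± SD of 3 rats and open points are libraries with fewer detected genes. Every exposed library lies below every control library for all 9 genes, and only Spp1, Hs3st2, Adam11 and AC132671.2 have all 7-week libraries below all 3-week libraries.

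The choice of the genes fixed their direction against control: all 9 were called lower at both times, beside 1.21% of all genes tested at 3 weeks and 3.13% at 7 weeks, and none was called higher, beside 0.438% and 2%. Their exposed and control libraries did not overlap, which held for 10.9% of all genes in the lower direction at 3 weeks and 17.1% at 7 weeks. Ranked from the largest fall of 15517 genes, they stood between places 174 (Vwa3a) and 1548 (Spp1) at 3 weeks. At 7 weeks they stood between 48 (Hs3st2) and 1387 (Ap3b2). For the further fall, 4 of the 9 genes had every 7-week library below every 3-week library, against 8.93% of all genes, and 1 of the 4 was called. With 3 rats in each group, the smallest two-sided p that an exact permutation test allows is 0.1, so single genes were tested only in the model fitted across all genes.

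The share of the 7-week fall already reached at 3 weeks was computed from the group means in CPM. It was 98.5% in AC132671.2, 98.8% in Fbxw7, 93.5% in Insc, 92.6% in Adam11, 88.0% in Lrtm2 and 87.0% in Hs3st2. For Vwa3a and Ap3b2 it exceeded the whole fall, at 107% and 117%, since their 7-week means were above their 3-week means. In Spp1 it was 59.4%. With each library left out in turn, the share of Spp1 ran from 54.5% to 62.8%, below the lowest value of any other gene, 76.0% in Lrtm2. The scale mattered for Hs3st2, whose share was 60.8% on the log2 scale, where that of Spp1 was 44.2%. Spp1 is thus the gene that falls further by 7 weeks under the test, Hs3st2 and Adam11 are at lower levels at 7 weeks without a call, and the remaining 6 had intervals that include no difference.

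**Figure D3:**
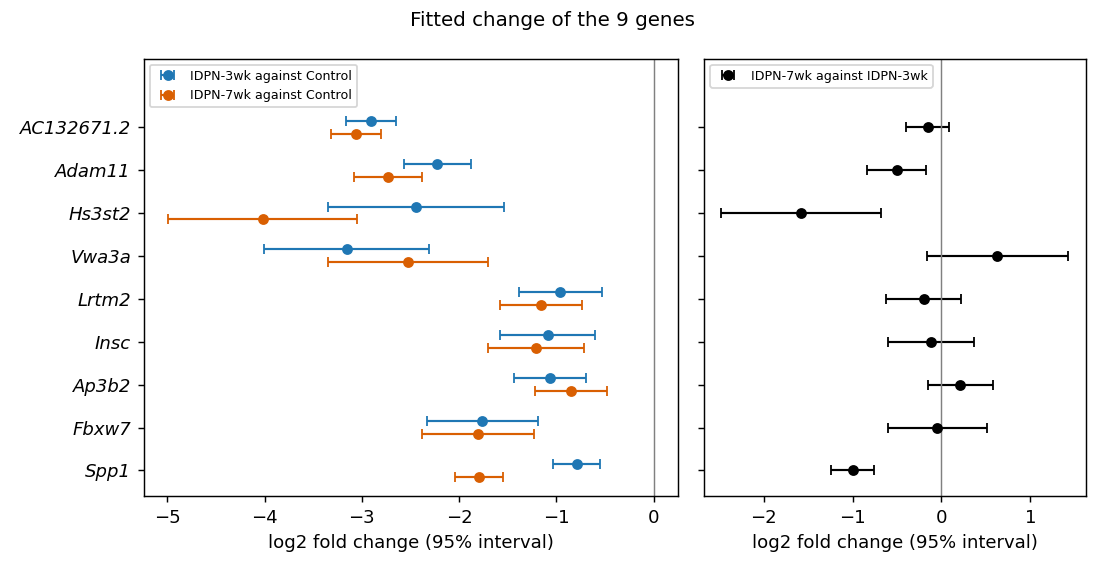
Fitted log2 fold changes with 95% intervals against control (left; blue 3 weeks, orange 7 weeks) and of 7 against 3 weeks (right). The right-hand interval excludes 0 for Spp1 (-1.24 to -0.76), Hs3st2 (-2.48 to -0.68) and Adam11 (-0.83 to -0.17), and only Spp1 passes adjustment over all genes in this edgeR fit.

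The fall of the genes was set beside that of the HC markers, whose mean log2 CPM changed by -0.83 at 3 weeks and by -1.02 at 7 weeks. The median log2 fold change of the same 16 markers was smaller in size, -0.51 and -0.89. A few markers with large changes move the mean, such as Pcdh15, a tip link protein named here after its values were seen, with means of 8.67, 0.824 and 1.29 CPM. Of the 16 markers, 3 were called lower at 3 weeks and 8 at 7 weeks, and none was called higher. Log2 fold changes were below 0 for 13 of them at 3 weeks and for all 16 at 7 weeks. Those not below 0 at 3 weeks were Gfi1 (0.55), Cib2 (0.10) and Tmie (0.004). The markers given next are called ones. Otof, the HC synapse calcium sensor, went from 703 ± 75.5 to 353 ± 52.5 and 351 ± 23.8 CPM, and Loxhd1, a stereocilia protein, from 92.2 ± 14.7 to 28.7 ± 0.963 and 37.2 ± 7.63 CPM. Tmc1, a subunit of the transduction channel, was at 41.4 ± 6.29, 20.0 ± 1.34 and 20.4 ± 2.19 CPM, and Espn, an actin bundler of stereocilia, at 170 ± 18.7, 133 ± 45.8 and 61.5 ± 5.63 CPM and called only at 7 weeks. Of 10 markers of HCII, only Calb2 was called, with 19.1 ± 0.685, 6.39 ± 0.289 and 7.15 ± 3.12 CPM. These lists give the frame for the values that follow.

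Relative to the mean of the HC markers, AC132671.2 fell by 2.07 on the log2 scale at 3 weeks and by 2.03 at 7 weeks. Vwa3a fell by 2.46 and 1.49, Hs3st2 by 1.75 and 2.94, Adam11 by 1.39 and 1.71, and Fbxw7 by 0.99 and 0.79. These 5 genes therefore fell more than the marker mean at both times. Lrtm2 (-0.15 and -0.14), Insc (-0.27 and -0.20) and Ap3b2 (-0.21 and 0.19) were closer to the marker mean. Spp1 differed from it by 0.03 at 3 weeks and by -0.78 at 7 weeks. These distances depend on the summary used: at 3 weeks the log2 fold changes of all 9 genes, Spp1 (-0.79), Lrtm2 (-0.96), Ap3b2 (-1.06) and Insc (-1.09) included, were below the marker median of -0.51. At 7 weeks all but Ap3b2 (-0.85) were below the marker median of -0.89. No test was made on these differences, because the genes were chosen by their fall.

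**Figure D4:**
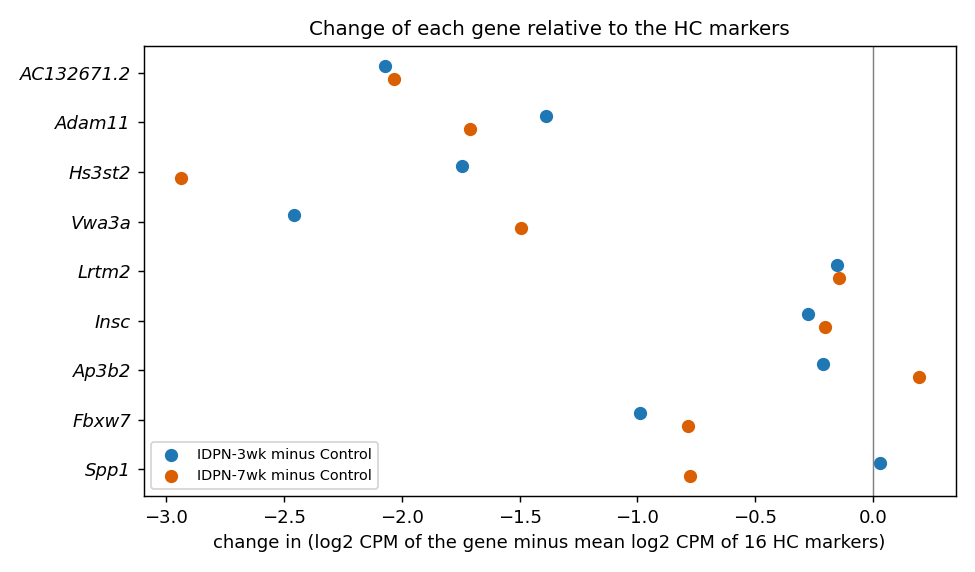
Change of each gene relative to the mean log2 CPM of 16 HC markers, at 3 weeks (blue) and 7 weeks (orange) minus control; 0 means the same change as the marker mean (-0.83 and -1.02), which is larger in size than the marker median (-0.51 and -0.89). Lrtm2, Insc and Ap3b2 lie between -0.27 and 0.19, and Spp1 is at 0.03 at 3 weeks and at -0.78 at 7 weeks.

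At 3 weeks no relative or partner of these proteins was called, beside 1.21% lower and 0.438% higher of all genes tested. At 7 weeks some were called, beside 3.13% lower and 2% higher of all genes tested. Whether their share differed from these was not tested. Among 10 tested relatives and partners of ADAM11, none was called at 3 weeks and 2 at 7 weeks, beside a list median log2 fold change of 0.16 and -0.13. These were the Kv1 channel subunits Kcna1, with 118 ± 11.1 CPM in controls, 86.8 ± 10.7 CPM at 3 weeks and 49.2 ± 19.8 CPM at 7 weeks, and Kcna2, with 138 ± 33.6, 80.7 ± 10.5 and 54.9 ± 18.1 CPM. Of 13 tested genes of the AP-3 complex and its relatives, 1 was called lower and 1 higher, both at 7 weeks. The former was the vesicular glutamate transporter Slc17a8, which went from 67.1 ± 3.24 to 24.5 ± 16.6 and 13.6 ± 3.59 CPM and is also counted among the HC markers. The latter was Ap3m2, the μ subunit of neuronal AP-3 and thus a partner of AP3B2, which went from 15.3 ± 2.34 to 27.7 ± 6.06 and 29.8 ± 3.94 CPM. Subunits of the same neuronal complex thus moved in opposite directions at 7 weeks.

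No gene of the remaining partner lists was called lower at 3 or 7 weeks, beside 1.21% and 3.13% of all genes tested. For heparan sulfate synthesis (18 tested) the median log2 fold changes were 0.03 and -0.11, and its most abundant gene, the sulfatase Sulf1, was at 274 ± 18.7, 238 ± 43.3 and 258 ± 9.23 CPM. For the Inscuteable complex (15 tested) they were 0.01 and -0.08, with the spindle protein Numa1 at 255 ± 13.6, 268 ± 21.9 and 295 ± 2.12 CPM. For the SCF-FBXW7 ligase and its substrates (15 tested) they were -0.06 and 0.02, with the ligase subunit Skp1 at 2285 ± 208.2, 2091 ± 49.9 and 1879 ± 155.7 CPM. In these 3 lists the genes measured were not called in either direction, and the median over all genes tested at 7 weeks was 0.01.

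For osteopontin receptors and related matrix proteins (16 tested) the medians were -0.35 and -0.07, and Sparc, a matrix glycoprotein, was at 1404 ± 70.7, 1389 ± 142.9 and 1170 ± 130.3 CPM. For VSIG and related immunoglobulin proteins (10 tested) they were 0.04 and -0.10, with the adhesion protein Igsf9 at 81.6 ± 11.4, 56.6 ± 10.1 and 76.0 ± 14.5 CPM. Among 14 tested relatives of LRTM2 and VWA3A, only Vwa5a was called, higher at 7 weeks, with 68.7 ± 4.42, 69.2 ± 22.2 and 140 ± 33.4 CPM, and the medians were -0.16 and -0.14. None of the genes of these 8 lists was called between 7 and 3 weeks, beside 0.135% lower and 0.348% higher of all genes tested.

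**Figure D5:**
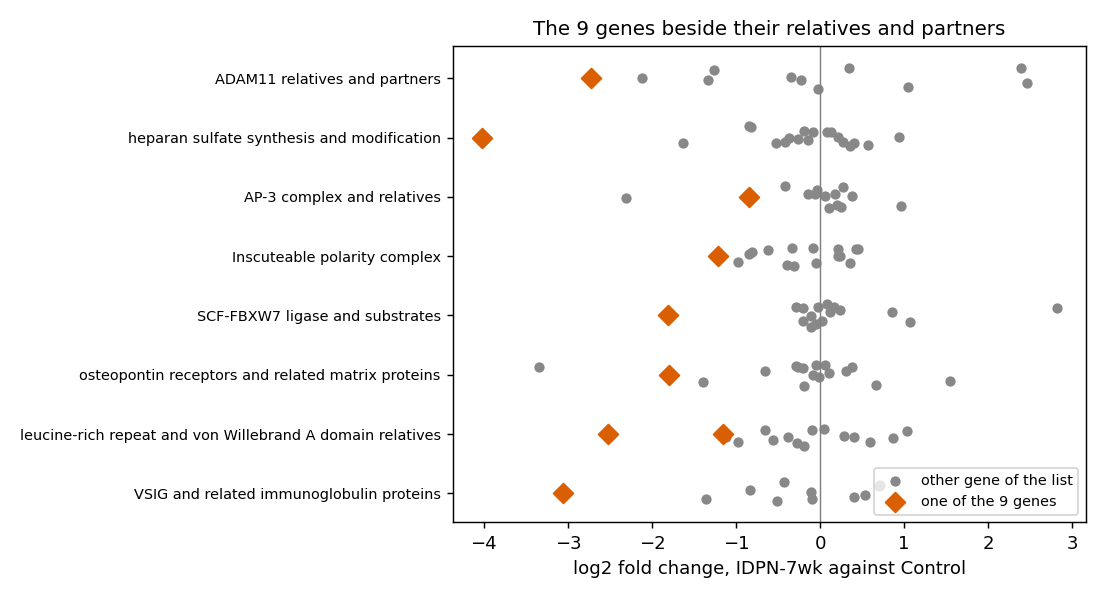
Log2 fold change of IDPN-7wk against Control for the tested genes of 8 lists of relatives and partners (grey circles) and for the 9 genes (orange diamonds). The diamonds lie between -4.02 (Hs3st2) and -0.85 (Ap3b2), while the medians of the other genes lie between -0.14 and 0.11. The 9 genes were chosen by their fall and the other genes were not, so this contrast is no finding.

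Across the 9 libraries, the 36 pairs of the 9 genes had Pearson correlations of log2 CPM from 0.62 (Ap3b2 with Spp1) to 0.98 (AC132671.2 with Adam11), with a median of 0.87. The libraries share 3 group means, and genes chosen by a fall in the same groups must correlate in this way. After the group means were removed, the correlations ran from -0.73 (AC132671.2 with Spp1) to 0.92 (Vwa3a with Fbxw7), with a median of 0.075. Within groups, libraries high for one of the genes were thus not generally high for the rest, apart from such pairs as Vwa3a and Fbxw7.

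The genes most like each of the 9 were taken by Pearson correlation over the 9 libraries among 11341 genes of at least 5 CPM. A like order of the groups follows from that choice and is no finding. Size of change is not weighed: Mcub, nearest to Insc, had means of 29.8, 24.4 and 23.4 CPM, beside 54.4, 25.5 and 23.5 CPM for Insc. Lsamp, a neuronal adhesion protein, came first for AC132671.2 (r = 0.99) and for Adam11 (r = 0.997). Dner, a NOTCH-binding membrane protein, was among the 3 nearest genes of both, with Atp2b2, the calcium pump of stereocilia, for AC132671.2 and Wdr78 for Adam11. Lsamp had mean levels of 91.6, 30.7 and 25.7 CPM in controls, at 3 weeks and at 7 weeks, and so shared the early step. The genes most like Spp1 were Scg5, a granin-family chaperone of secretory granules (112.7, 72.7 and 42.2 CPM), Crtac1, a secreted matrix protein (69.2, 35.7 and 18.4 CPM), and Tdrd7 (161.2, 98.9 and 59.0 CPM). These fell in both steps, as their choice by correlation with Spp1 implies.

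For Vwa3a the nearest genes were Dnm1, Zfp385a and Spag6l, the last named a relative of a protein of the ciliary axoneme. For Fbxw7 they were the transcription factor Zbtb20, the presynaptic protein Nrxn3 (64.2, 6.24 and 7.67 CPM) and Sema6d. Hs3st2 was nearest to Osbpl6, the sodium pump subunit Atp1b1 and AABR07069282.1, Lrtm2 to Hsd17b7, Matn2 and Scn7a, Insc to Mcub, Scaper and Vcl, and Ap3b2 to Dhrs1, AC130970.1 and AABR07070161.1. Correlations of these 27 places ran from 0.957 to 0.9965. Most of the places went to other genes when Spearman correlation was used.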

How the data were processed

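Vestibular epithelia of 9 rats were sequenced with SMARTseq2 libraries, and the authors mapped the reads with STAR 2.5.3a to the rat genome Rnor6.0 and made estimated counts per gene with RSEM (1.3.0 in the submitters' processing notes). The deposited values are these estimated (expected) counts as whole numbers, without normalization. The strand used in counting is not given in the sources used here, so overlapping genes are uncertain. The genes and gene lists were chosen with earlier results of these data known.

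Here, R 4.3.3 and edgeR 4.0.16 were used. Genes kept by filterByExpr (15517 of 32883) were TMM-scaled and fitted in 1 robust quasi-likelihood model over 9 libraries with a mean per group (6 residual degrees of freedom), with Benjamini-Hochberg adjustment per comparison. Genes were called where the fold change exceeded 1.5 at an adjusted p below 0.05. Errors of log2 fold changes come from this fit, which was tested on simulated data. Replicate numbers were assigned in accession order and pair no animals. The single date given as batch was the same for all libraries. Similar genes are the 3 with the highest Pearson correlation of each gene. From each list, the called genes are named, up to 4 by adjusted p, or the most abundant gene where none was called. Markers of neurons and of dark cells and melanocytes were also followed. Alternatives were DESeq2 1.42.0, RLE scaling, no filter, a minimum of 10 counts per library, a fit of only the groups compared, the difference in detected genes as a covariate, no fold threshold, log2 shares, rank correlation and each library left out. Promoters came from RefSeq (GRCr8), another build than that of the counts.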

Additional observations from a re-analysis of the deposited data

Results flagged for a closer look

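Spp1 fell by different amounts in the 2 times of exposure, with a log2 difference between the fall at 7 weeks and the fall at 3 weeks of -0.999 by the edgeR quasi-likelihood test of the difference itself (adjusted p = 0.003261). The level was lower in 3 of 3 libraries at 7 weeks than in any library at 3 weeks. With the difference in detected genes in the model, the same test gave -0.85 (adjusted p = 0.02164). Spp1 was chosen with earlier results of these libraries known, so these p-values are no independent evidence. Age and length of exposure cannot be told apart between these groups.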

How the results depend on the processing

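Against control, the 9 genes kept a lower level at both times under all 16 alternatives, but adjusted p reached 0.138 for Insc, 0.1317 for Lrtm2, 0.06412 for Hs3st2, 0.05951 for Ap3b2 and 0.05153 for Fbxw7 at 3 weeks and 0.06958 for Ap3b2 at 7 weeks. Between 7 and 3 weeks, Spp1 ranged from -1.08 to -0.85 in log2 fold change and was called throughout, with adjusted p of at most 0.02632. The number of the 9 called lower there was 2 with DESeq2, and 1 to 2 with single libraries left out. Fbxw7 changed sign without IDPN-3wk replicate 1 (0.27) and without IDPN-7wk replicate 1 (0.01) or 2 (0.01), as did Insc without IDPN-3wk replicate 3 (0.08) or IDPN-7wk replicate 1 (0.05). Over single libraries left out, Fbxw7 ran from -0.2586 to 0.2673 and Insc from -0.2486 to 0.0848, and neither was called.

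Over all genes, the calls at 3 weeks, at 7 weeks and between 7 and 3 weeks (256, 796 and 75) became 742, 1316 and 524 with DESeq2 and 118, 1249 and 46 with only the groups compared. Between 7 and 3 weeks they were 123 with at least 10 counts in every library and 37 with detected genes as a covariate. With single libraries left out they ran from 75 (without Control replicate 2) to 439 (without IDPN-3wk replicate 3) at 3 weeks, from 432 (without IDPN-7wk replicate 1) to 969 (without IDPN-3wk replicate 1) at 7 weeks, and from 39 (without IDPN-7wk replicate 3) to 445 (without IDPN-3wk replicate 3) between them. With Spearman in place of Pearson correlation, 3 of the 27 most similar genes remained. No paired analysis was possible because replicate numbers pair no animals.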

Other observations

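Some markers of the other cells in these samples also changed, beyond those set beside Spp1, and the called ones are given here. Of 12 supporting cell markers, 1 was called lower at 3 weeks and 5 at 7 weeks. Otogl, a component of the membranes above the sensory epithelium, had 478 ± 18.5 CPM in controls, 249 ± 28.7 CPM at 3 weeks and 239 ± 24.3 CPM at 7 weeks, and its relative Otog had 8471 ± 115.4, 4673 ± 1088 and 3532 ± 989.1 CPM. Tectb, also a protein of these membranes, was at 360 ± 43.4, 221 ± 62.2 and 109 ± 27.8 CPM. Gjb6, a gap junction protein, was at 1802 ± 255.7, 1424 ± 114.1 and 883 ± 91.2 CPM and was the only marker of this list called lower between 7 and 3 weeks (adjusted p = 0.04259, edgeR).

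Of 9 neuron markers, only the synaptic protein Snap25 was called, at both times, with 38.6 ± 5.71, 12.9 ± 4.91 and 10.7 ± 0.593 CPM. Of 10 Schwann cell markers, 2 were called, both lower at 7 weeks. These were the myelin genes Mbp (1987 ± 308.8 CPM in controls and 896 ± 358.4 CPM at 7 weeks) and Pmp22 (1978 ± 311.4 and 933 ± 345.8 CPM). Of 9 dark cell and melanocyte markers tested, 2 were called lower at 7 weeks and 1 higher at 3 weeks, and the rest were not called. Slc12a2, a chloride cotransporter, was at 712 ± 51.4 CPM in controls and 283 ± 92.8 CPM at 7 weeks, and Kcnq1 at 86.6 ± 27.7 and 31.4 ± 10.9 CPM. Bsnd, a chloride channel subunit, was called higher at 3 weeks, with 21.2 ± 4.10 CPM in controls and 53.8 ± 4.59 CPM. The macrophage genes called higher at 7 weeks went from 13.7 ± 4.91 to 44.5 ± 4.08 CPM (C1qb), from 65.4 ± 13.5 to 129 ± 26.1 CPM (Gpnmb) and from 14.5 ± 4.13 to 29.1 ± 1.83 CPM (Cd14).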
